A study of Mus musculus with 8 samples.

Results

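The genes described here were 8 members of the interleukin-1 (IL-1) receptor system. They are among 53465 gene identifiers with a value in each library of sorted mouse regulatory T (Treg) cells. The 8 are the decoy Il1r2, the secreted antagonist Il1rn, the receptor chains Il1r1, Il1rap, Il1rl1, Il18r1 and Il18rap, and the adaptor Myd88. They were taken by symbol and chosen by measured values in part, with Il1r2 on the list because its difference between the mosaic libraries below was among the largest in the data. The values of that mosaic comparison are therefore a description of how the genes were picked, and the same libraries enter 3 more comparisons. All 8 genes were matched to 1 identifier each.

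RNA had been sequenced in 8 libraries, 1 per condition, from spleen and lymph nodes (LN) of C57BL/6 mice of 3-4 weeks. All mice carried R26CAG-FlpoER, a tamoxifen (TAM)-inducible Flp recombinase under a ubiquitous promoter, and in all but 1 of the labels Foxp3YFP-Cre, a Cre driven by the Foxp3 locus. The study asked what the loss of Brg1 (Smarca4), the ATPase of the BAF chromatin remodelling complex, and its later reexpression do to Treg cells. The 6 total Treg libraries were WT (BrgF/+ Foxp3YFP-Cre/+, thus with 1 floxed Brg1 allele), the Brg1-sufficient (BrgF/ΔR Foxp3+/+) and Brg1-deleted (BrgF/ΔR Foxp3YFP-Cre) subsets of healthy mosaic females, untreated rKO1 (BrgF/deltaR Foxp3YFP-Cre/YFP-Cre, Brg1-deleted, from mice with inflammatory disease), and, on Day 7 after TAM, GFP+ Brg1-deleted cells (the same genotype) and Brg1-reexpressed cells of rKO1 mice, which the study sorted as GFP- (labelled BrgF/+ Foxp3YFP-Cre/YFP-Cre). The ΔR allele is a gene trap with a GFP reporter that Flp removes, so mosaic Brg1-sufficient and untreated rKO1 cells still carry it. The 2 activated Treg (aTreg) libraries, also from Day 7 after TAM, are labelled Brg1-deleted (genotype BrgF/F Foxp3YFP-Cre/YFP-Cre) and Brg1-reexpressed (BrgF/+ Foxp3YFP-Cre/YFP-Cre). The study's methods give 100000 sorted cells per library. How many mice went into a library is not given in the sources used here.

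With 1 library per condition there was no replicate and no p-value. Each library held between 16324018 and 24093553 reads on genes. The floor was set at 3 reads, which is 0.123 to 0.181 CPM (counts per 1000000 reads of the TMM-scaled library). A gene was compared when it reached 5 CPM in either library and was called when the libraries differed at least 2-fold. The ranges in parentheses after a fold are exact 95% binomial intervals for counting error alone. As a measure of how far libraries of like Brg1 status lay apart, the 500 genes nearest in expression to each gene were ranked by the size of their log2 fold, and its 95th percentile was taken, in the pairs WT and mosaic Brg1-sufficient, and untreated and GFP+ rKO1, and the wider of both is called the like-status width. These pairs differ in mice or treatment and are not replicates.

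Smarca4 reads, which include exons outside the deleted part, were at 87.8 CPM in WT and 77.0 in mosaic Brg1-sufficient cells. They were at 47.1 in mosaic Brg1-deleted, 44.0 in untreated rKO1 and 36.0 in GFP+ cells, and at 58.0 in reexpressed cells. In aTreg cells they went against the labels, with 71.2 CPM in the library labelled Brg1-deleted and 59.4 in the library labelled Brg1-reexpressed. The former also has a file heading that reads WT, so that every aTreg direction below is one between labels. All 7 Treg markers exceeded 5 CPM in every library, though Foxp3 ranged from 83.7 CPM in WT to 614 in mosaic Brg1-sufficient cells among the total Treg libraries, and was at 93.8 and 62.1 CPM in the aTreg libraries labelled Brg1-deleted and Brg1-reexpressed. Reads of Y-linked genes were 0 in WT and in both mosaic libraries and above 0 in the other 5, so that sex and genotype cannot be told apart between those sets. Xist had 10 reads in untreated rKO1 beside 4155 Y-linked reads, but 935 in GFP+ and 762 in reexpressed cells beside 2083 and 1416 Y-linked reads. The untreated and GFP+ pair used for the like-status width thus also differed in these genes. The paper gives Foxp3YFP-Cre/YFP-Cre for female rKO1 mice and Foxp3YFP-Cre for males, so the reads of untreated rKO1 go against its genotype label. Reads of both kinds in GFP+ and in reexpressed cells point to mice of both sexes in each library. The paper describes mosaic Brg1-sufficient cells as YFP- and mosaic Brg1-deleted cells as YFP+. Brg1 and the sort gate can thus not be told apart in the mosaic pair, where Foxp3 was at 614 against 281 CPM. The RNA was bulk, so fewer cells of a type and less RNA per cell cannot be told apart.

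IL-1 signals when the ligand joins the receptor IL1R1 to the accessory chain IL1RAP, whose intracellular domains recruit MYD88 and, through it, kinases of the IRAK family that lead to NF-kB. IL1R2 binds IL-1 but lacks the signalling domain and so acts as a decoy, and IL1RN is a secreted antagonist that occupies IL1R1. ST2, the product of Il1rl1, is the receptor for IL-33 and also pairs with IL1RAP, while IL18R1 and IL18RAP form the receptor for IL-18. In Treg cells these receptors are known from activated and tissue-resident cells.

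Of the 8 genes, 5 lie on chromosome 1 in a cluster of 6 IL-1 receptor family genes, all on the plus strand, that spans chr1:40074079-40551705 (GRCm38, 478 kb). The order is Il1r2, Il1r1, Il1rl2, Il1rl1, Il18r1 and Il18rap, with Map4k4 47768 bases before Il1r2 and Slc9a4 28375 bases after Il18rap. Between the end of Il1rl1 and the start of Il18r1 lie 136 bases. Outside the cluster are Il1rn (chr2:24336853-24351494, plus strand), Myd88 (chr9:119335934-119341411, minus strand) and Il1rap (chr16:26581704-26730117, plus strand). Of the exon bases of Myd88, 11.3% overlap Acaa1a on the other strand, and of those of Il1rap 4.86% overlap Gm20319, so reads there are uncertain in their gene. The exons of the other 6 genes overlap no other gene.

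The sequences before the RefSeq starts (GRCm38.p6, plus strand) of Il1r2, Il1rl1 and Il18rap are shown because these were the genes called in the mosaic pair, at chr1:40085852-40085984, chr1:40429320-40429569, chr1:40439379-40439626 and chr1:40515112-40515361. Each is the longest stretch of the 250 bases before the start that holds no annotated exon base, and capitals mark motif matches.
Il1r2: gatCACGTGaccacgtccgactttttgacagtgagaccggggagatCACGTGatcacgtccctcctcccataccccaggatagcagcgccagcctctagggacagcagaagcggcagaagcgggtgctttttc
Il1rl1, first start: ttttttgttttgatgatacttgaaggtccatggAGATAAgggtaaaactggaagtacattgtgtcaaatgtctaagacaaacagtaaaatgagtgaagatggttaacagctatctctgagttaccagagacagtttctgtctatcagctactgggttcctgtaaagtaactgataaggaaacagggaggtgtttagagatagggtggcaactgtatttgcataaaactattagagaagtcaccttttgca
Il1rl1, second start: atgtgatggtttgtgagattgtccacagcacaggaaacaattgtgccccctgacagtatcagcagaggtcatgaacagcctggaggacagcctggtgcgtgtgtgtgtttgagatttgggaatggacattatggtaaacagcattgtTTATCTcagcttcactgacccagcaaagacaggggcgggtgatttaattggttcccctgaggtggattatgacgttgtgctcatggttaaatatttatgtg
Il18rap: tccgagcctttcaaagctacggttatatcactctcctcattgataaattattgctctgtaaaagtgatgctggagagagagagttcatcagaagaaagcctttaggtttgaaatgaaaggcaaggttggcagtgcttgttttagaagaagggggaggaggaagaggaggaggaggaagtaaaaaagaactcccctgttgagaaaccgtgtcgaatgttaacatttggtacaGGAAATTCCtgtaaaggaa
The 8 genes have 14 such starts in RefSeq. In the full 250 bases, on both strands, 5 motifs were searched, and their share was counted over 32851 RefSeq promoters. The AP-1 motif was spelled TGANTCA and is found in 6.75% of all promoters. The motif of the zinc finger factors that include GATA3 was spelled AGATAA and is found in 9.99%. The RUNX motif was spelled TGTGGT and is found in 14.0%. The STAT motif was spelled TTCNNNGAA and is found in 7.02%. The NF-kB motif was spelled GGNNTTTCC and is found in 4.93%. An E-box, spelled CACGTG and found in 6.02%, was added after the sequence of Il1r2 had been seen. Il1r2 held 2 E-boxes, starting 238 and 195 bases before the start, and 1 STAT match 111 bases before it, which runs into an annotated exon and is not marked. The first Il1rl1 start had an AGATAA match 217 bases before it, and the second start had one 103 bases before it and a RUNX match at 6 bases that runs into the exon. Il18rap had an NF-kB match 19 bases before its start. None of the 6 motifs was shared by Il1r2, Il1rl1 and Il18rap. A match is a run of letters and not a shown binding site.

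Il1r2, the IL-1 decoy, had the widest range of the 8 genes. Its level was 61.3 CPM in WT (1018 reads), 31.7 in mosaic Brg1-sufficient cells (672 reads) and 1.07 in mosaic Brg1-deleted cells (26 reads). It was 41.5 CPM in untreated rKO1 (795 reads), 54.7 in GFP+ Brg1-deleted cells (1004 reads) and 158 in Brg1-reexpressed cells (2653 reads). The mosaic Brg1-deleted library thus stood alone at the low end and the reexpressed library at the high end, 148-fold apart. The other 4 libraries, with and without Brg1, differed from their neighbours in the order by less than the like-status width of 1.20 (log2). Both ends lay beyond it, but Il1r2 was picked for its mosaic difference and the width rests in part on mosaic Brg1-sufficient cells. That the low end lay beyond the width is therefore no test of it.

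In the mosaic pair, Il1r2 was 29.6-fold higher in Brg1-sufficient than in Brg1-deleted cells (95% interval 20.1 to 45.7), the 12th of 10073 compared genes by size of difference. In rKO1 mice after TAM, the same contrast gave 2.89-fold (2.68 to 3.11), rank 507 of 10323. Between Brg1-deleted cells, Il1r2 was 38.8-fold higher in untreated rKO1 than in mosaic cells (26.3 to 59.8). Between cells with Brg1, it was 4.99-fold higher in the reexpressed than in the mosaic library (4.58 to 5.44). Untreated rKO1 cells, also Brg1-deleted, held Il1r2 at 0.677 times the WT level (0.616 to 0.744), short of a call. Myeloid cells also make Il1r2. Of 3 myeloid markers compared in the mosaic pair 0 were called, beside 6.12% of all compared genes. The summed level over 11 markers was 402 CPM in Brg1-sufficient and 334 in Brg1-deleted cells. Without Cd74, at 259 and 185 CPM, the sums were 142 against 149 CPM. In rKO1 mice 6 of 9 markers were at least 2-fold lower in the reexpressed library, where Il1r2 was higher. Of all compared genes 12.8% were called there in either direction. The sums of all 11 were 533 against 472 CPM in GFP+ cells, but Cd74 alone took 464 and 316 CPM, and the other 10 markers summed to 69.3 against 155 CPM. In untreated rKO1 over mosaic Brg1-deleted cells 5 of 7 were higher, beside 15.1% of all genes called, with sums of 488 against 334 CPM. Without Cd74 these sums were 191 against 149 CPM. The part of such cells in the 38.8-fold difference was not tested.

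Il1rn, the secreted antagonist, stayed under 5 CPM everywhere and entered no comparison. It ranged from 0.657 CPM (16 reads, mosaic Brg1-deleted) to 1.93 CPM (41 reads, mosaic Brg1-sufficient) in total Treg libraries, and all neighbours in the order lay within the like-status width of 3.04. In aTreg cells it was at 0.961 CPM (17 reads) in the library labelled Brg1-deleted and 4.01 CPM (79 reads) in that labelled Brg1-reexpressed, 4.18-fold apart (2.45 to 7.53). Of 9 myeloid markers compared there, 4 were higher in the same library, beside 6.44% of all compared genes called in either direction. All 11 summed to 1313 against 751 CPM, and their part in the difference was not tested.

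**Figure D1:**
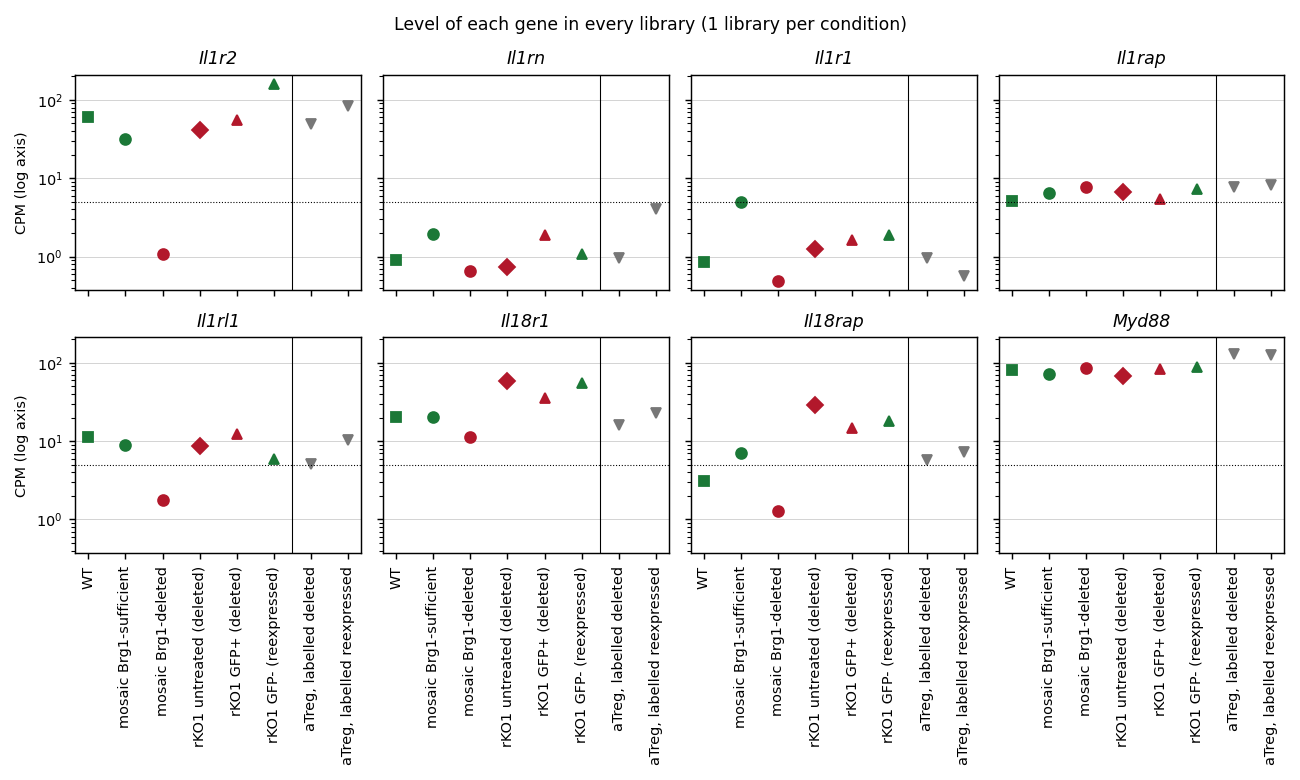
Level of each of the 8 genes in every library, in CPM on a log axis (green, cells with Brg1; red, Brg1-deleted; grey, aTreg libraries by label; dotted line, 5 CPM; no error bars, 1 library per condition). Il1r2, Il1rl1, Il18r1 and Il18rap were lowest of the total Treg libraries in mosaic Brg1-deleted cells, while Il1rap and Myd88 were nearly level.

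Il1r1, the signalling receptor for IL-1, was scarce. It was at 0.843 CPM in WT (14 reads), 4.95 in mosaic Brg1-sufficient (105 reads) and 0.493 in mosaic Brg1-deleted cells (12 reads). It was at 1.25 CPM in untreated rKO1, 1.64 in GFP+ and 1.91 in reexpressed cells. The mosaic Brg1-sufficient library was the highest, 10.04-fold over its Brg1-deleted counterpart (5.51 to 20.04) but also 5.87-fold over WT (3.35 to 11.1). All these values lay under the 5 CPM limit, so none of them is a call, and each neighbour in the order was within the like-status width of 2.87.

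Il1rap, the accessory chain shared by the IL-1 and IL-33 receptors, ranged only from 5.12 CPM in WT (85 reads) to 7.77 in mosaic Brg1-deleted cells (189 reads), 1.52-fold over the 6 total Treg libraries. It was called in 0 of 8 comparisons. Its log2 fold was -0.27 (-0.59 to 0.06) in the mosaic pair and 0.44 (0.05 to 0.84) in rKO1 mice after TAM. In aTreg cells it was at 7.69 and 8.18 CPM.

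The ratio of decoy to signalling receptor varied between libraries. Per kilobase of exon, Il1r2 exceeded Il1r1 242-fold in WT, 21.3-fold in mosaic Brg1-sufficient and 7.23-fold in mosaic Brg1-deleted cells. Between the first 2 libraries Il1r1 differed 5.87-fold and Il1r2 1.93-fold. The ratio was 110 in untreated rKO1, 112 in GFP+ and 276 in reexpressed cells, but rests on 12 to 105 Il1r1 reads. Against the better covered Il1rap, Il1r2 was 0.819 times as high in mosaic Brg1-deleted cells and 29.2 to 128 times in the other 5 total Treg libraries. Of the summed CPM per kilobase of the 6 receptor genes, Il1r2 made up 13.7% in mosaic Brg1-deleted cells and 54.3% to 83.7% in the other 5. In mosaic Brg1-deleted cells Il18r1 took the first place, with 56.9%.

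**Figure D2:**
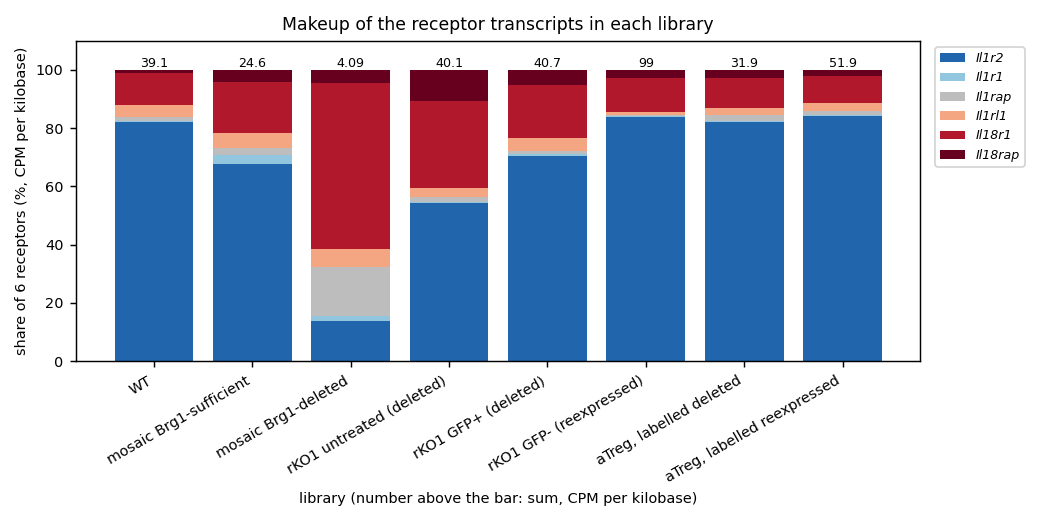
Share of each of 6 receptor genes in their summed CPM per kilobase (percent, stacked bars from 0, 1 bar per library), with the sum above the bar. Il1r2 is the main part in every library but mosaic Brg1-deleted, where the sum is 4.09 against 24.6 in its Brg1-sufficient counterpart.

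Il1rl1, which encodes the IL-33 receptor ST2, was at 11.3 CPM in WT (188 reads), 9.05 in mosaic Brg1-sufficient (192 reads) and 1.77 in mosaic Brg1-deleted cells (43 reads). It was at 8.56 CPM in untreated rKO1 (164 reads), 12.5 in GFP+ (229 reads) and 5.84 in reexpressed cells (98 reads). In the library order, only the step down to mosaic Brg1-deleted cells, 3.30-fold, was beyond the like-status width of 1.59. The gene did not keep 1 direction with Brg1. It was 5.12-fold higher in Brg1-sufficient than Brg1-deleted mosaic cells (3.66 to 7.31), but in rKO1 mice after TAM it was 0.468 times as high in reexpressed as in Brg1-deleted cells (0.365 to 0.595). Between Brg1-deleted cells it was 4.84-fold higher in untreated rKO1 than in mosaic (3.44 to 6.95). In aTreg cells it was at 5.09 and 10.4 CPM, 2.04-fold higher in the library labelled Brg1-reexpressed (1.58 to 2.64). The rKO1 and aTreg differences were within the like-status width, and the call in aTreg cells ended without TMM or on the deposited FPKM. With a pseudocount of 1 on the deposited FPKM, the mosaic and rKO1 calls ended too, at log2 folds of 0.89 and -0.66, as did that between Brg1-deleted cells, at 0.89. ST2 is also found on type 2 helper T cells and on mast cells. The 6 helper T cytokines summed to 74.0 CPM in GFP+ and 26.3 in reexpressed cells, with Il5 at 7.96 against 0.0596 and Il4 at 45.3 against 12.4, and their part in the lower Il1rl1 was not tested. They also summed to 20.8 CPM in untreated rKO1 against 1.52 in mosaic Brg1-deleted cells, with Il4 and Ifng called higher. In the mosaic pair the 6 cytokines summed to 7.97 CPM in Brg1-sufficient against 1.52 in Brg1-deleted cells, each under 5 CPM and so not compared. Il17f had 71 against 11 reads there and Il4 62 against 11. In aTreg cells the sum was 16.0 against 7.06 CPM, with Il4 at 9.14 CPM in the library labelled Brg1-reexpressed and 2.49 in the other, and their part in these differences was not tested either. The 7 mast cell and basophil markers summed to 5.34 CPM in GFP+ and 0.953 in reexpressed cells, and Ms4a2, Cma1 and Tpsb2 had 0 reads in both, which allows up to 3 reads each.

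Il18r1 and Il18rap, the chains of the IL-18 receptor, were, among the total Treg libraries, highest in the 3 from rKO1 mice, whatever their Brg1. Il18r1 was at 20.5 CPM in WT (341 reads) and in mosaic Brg1-sufficient cells (435 reads) and at 11.2 in mosaic Brg1-deleted cells (273 reads). It was at 58.1 CPM in untreated rKO1 (1114 reads), 35.4 in GFP+ (650 reads) and 56.1 in reexpressed cells (941 reads). The 3 total Treg rKO1 libraries did not overlap with the 3 libraries from healthy mice, though no step between neighbours exceeded the like-status width of 1.13. How many of all genes part these libraries in the same way was not counted. The pattern can thus not be called particular to this gene or to Il18rap. The aTreg libraries, also labelled as from rKO1 mice, were at 16.1 (labelled Brg1-deleted) and 22.9 CPM (labelled Brg1-reexpressed), the first within the range of the healthy mice and the second between that and the other rKO1 libraries.

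Il18rap was at 3.07 CPM in WT (51 reads), 7.16 in mosaic Brg1-sufficient (152 reads) and 1.27 in mosaic Brg1-deleted cells (31 reads). It was at 28.7 CPM in untreated rKO1 (549 reads), 14.6 in GFP+ (268 reads) and 18.2 in reexpressed cells (306 reads), again without overlap between rKO1 and the other mice among total Treg libraries. In the aTreg libraries it was at 5.71 and 7.26 CPM, near the level of mosaic Brg1-sufficient cells. Over the 6 total Treg libraries Pearson's r of log2(CPM + 1) was 0.96 between both chains, as a description of points that share 1 scaling. Per kilobase, Il18r1 was 2.84 to 12.3 times as high as Il18rap.

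Untreated rKO1 cells held 2.83-fold more Il18r1 (2.51 to 3.21) and 9.33-fold more Il18rap (7.00 to 12.7) than WT cells. Between Brg1-deleted cells, the differences of untreated rKO1 over mosaic were 5.18-fold (4.54 to 5.94) and 22.5-fold (15.7 to 33.4). Between cells with Brg1, reexpressed over mosaic Brg1-sufficient, they were 2.73-fold (2.44 to 3.07) and 2.54-fold (2.09 to 3.11). All 6 values lay beyond the like-status widths of 1.13 and 1.29. Within the mosaic pair Il18rap was 5.62-fold higher in Brg1-sufficient cells (3.80 to 8.57) and Il18r1 1.83-fold (1.57 to 2.13), while in rKO1 mice after TAM both were under 2-fold, at 1.25 (1.06 to 1.48) and 1.58 (1.43 to 1.75). Other lymphocytes with IL-18 receptors could be among the sorted cells. The 5 CD8 T and NK cell markers summed to between 11.9 CPM in reexpressed and 34.3 in mosaic Brg1-sufficient cells of the total Treg libraries. The sum was lower in untreated rKO1 (14.0 CPM) than in WT (19.0) or mosaic Brg1-deleted cells (22.8). Of this list, Eomes was at 7.10 CPM in untreated rKO1, 1.02 in WT and 2.26 in mosaic Brg1-deleted cells, called higher in the first. Cd8b1 went the other way, at 5.74 CPM in untreated rKO1 against 16.4 and 17.3, called lower in the first. Eomes was at 0.179 CPM (3 reads) in reexpressed against 3.35 in mosaic Brg1-sufficient cells. In the mosaic pair Ncr1 had 104 reads in Brg1-sufficient against 1 in Brg1-deleted cells, and Klrb1c 29 against 2. Both genes stayed under 5 CPM there and were not compared. Cd8b1 was at 21.8 against 17.3 CPM, while Cd8a went the other way, at 2.88 against 3.12. In rKO1 mice after TAM Ncr1 was called lower in reexpressed cells, with 0 reads against 122 in GFP+ cells. The part of such cells in the differences of both chains was not tested.

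Myd88, the adaptor, was the most even. It ranged from 68.5 CPM in untreated rKO1 (1313 reads) to 88.3 in reexpressed cells (1483 reads), 1.29-fold over the 6 total Treg libraries, and was called in 0 of 8 comparisons. All neighbours in the order lay within the like-status width of 0.95. Its log2 fold was -0.25 (-0.35 to -0.16) in the mosaic pair, 0.06 (-0.04 to 0.17) in rKO1 mice and -0.03 (-0.11 to 0.06) in aTreg cells, where it was at 128 and 126 CPM.

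**Figure D3:**
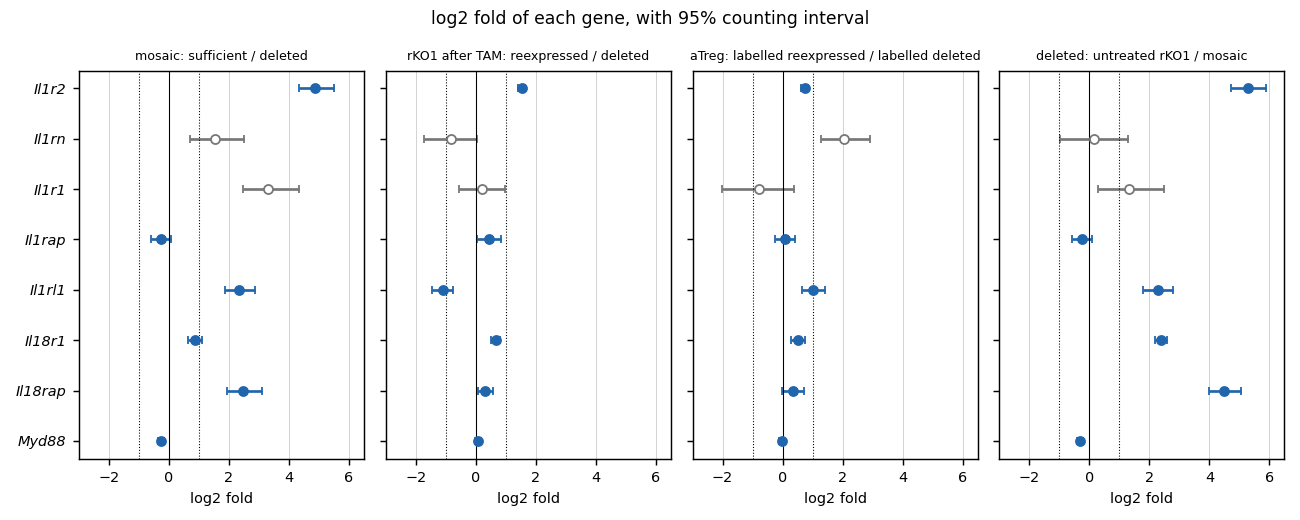
log2 fold of each gene in 4 comparisons (points, with exact 95% counting intervals; open grey points, under 5 CPM in both libraries; dotted lines, 2-fold). Il1r2 lies right of 0 in all 4, and Il1rl1 lies at 2.35 in the mosaic pair, -1.10 in rKO1 mice after TAM and 1.03 in aTreg cells.

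By comparison, 6 of the 8 genes were compared each time, Il1r1 and Il1rn being under 5 CPM. In the mosaic pair 3 were called, all higher in Brg1-sufficient cells (Il1r2, Il1rl1, Il18rap), where 6.12% of all compared genes were called and where the genes had been picked. Their median log2 fold was 1.61, against 0.03 over all compared genes. In rKO1 mice after TAM 1 was higher in reexpressed cells (Il1r2) and 1 lower (Il1rl1), with 12.8% of all genes called and a median of 0.38 against 0.06. Between Brg1-deleted cells of untreated rKO1 and mosaic mice 4 were higher (Il1r2, Il18rap, Il18r1, Il1rl1), with 15.1% of all genes called and a median of 2.32 against -0.05.

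In untreated rKO1 over WT cells 2 were higher (Il18rap, Il18r1), with 15.7% of genes called. In reexpressed over mosaic Brg1-sufficient cells 3 were higher (Il1r2, Il18r1, Il18rap), with 21.7% called. In WT over mosaic Brg1-sufficient cells 1 was lower (Il18rap, 0.429-fold), with 9.37% called, and Il1r2 missed the call at 1.93-fold (1.75 to 2.14). In GFP+ over untreated rKO1 cells 0 of 6 were called, with 4.42% called in all, and Il18rap missed it at 0.510-fold (0.439 to 0.591). In aTreg cells 1 was higher in the library labelled Brg1-reexpressed (Il1rl1), with 6.44% called, and Il1r2 was at 49.96 and 83.4 CPM, 1.67-fold apart (1.54 to 1.81). Most of these comparisons share libraries, and mosaic Brg1-deleted cells, the lowest in Il1r2, Il1r1, Il1rn, Il1rl1, Il18r1 and Il18rap, enter 2 of them.

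Along chromosome 1, all 6 receptor genes of the cluster had their lowest total Treg level in mosaic Brg1-deleted cells. For Il1r1 this rests on 12 reads against 14 in WT, and for Il1rl2 on 1 read against 3 in untreated rKO1. The share of all genes lowest in that library was not counted, and members were picked in part by the mosaic pair. The pattern can thus not be called particular to the cluster. Map4k4, the kinase gene next to Il1r2 and the only neighbour above 5 CPM, had its highest there, at 74.6 CPM against 61.7 in Brg1-sufficient cells. Il1rl2, the IL-36 receptor gene inside the cluster, had 1 read there and 0.236 CPM in Brg1-sufficient cells, both too few to compare. Beyond Il18rap, Slc9a4 had 0 reads in all 6 total Treg libraries, while Slc9a2 stayed at or under 0.0943 CPM and Mfsd9 between 0.181 and 0.754 CPM.

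**Figure D4:**
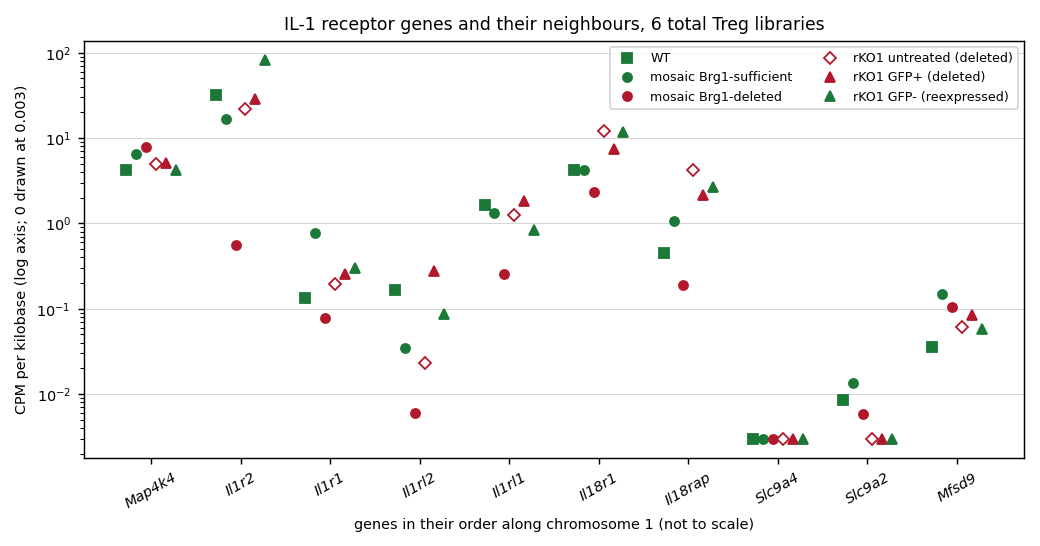
CPM per kilobase (log axis, 0 drawn at its foot) of the 6 clustered receptor genes and their neighbours in chromosome order in the 6 total Treg libraries (green, with Brg1; red, Brg1-deleted). From Il1r2 to Il18rap the mosaic Brg1-deleted library (red circles) is the lowest of the 6 in each gene, and in Map4k4 it is the highest. In Il1r1 and Il1rl2 its place rests on 12 reads and 1 read. How many of all genes are lowest there was not counted.

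The rest of the pathway is given from lists drawn up by role. Of 9 ligand symbols 5 were matched, and only Il18 reached 5 CPM. It was at 9.09, 5.28 and 5.75 CPM in WT, mosaic Brg1-sufficient and mosaic Brg1-deleted cells, and at 22.9, 17.4 and 11.2 CPM in untreated rKO1, GFP+ and reexpressed cells. The ligand gene was thus, like its receptor chains, higher in all 3 rKO1 total Treg libraries than in the other 3. The share of all genes with this order was not counted. In the aTreg libraries labelled Brg1-deleted and Brg1-reexpressed Il18 was at 16.7 and 39.1 CPM. It was called higher in the second, beside 6.44% of all compared genes. The receptor chains did not follow it there, with Il18r1 at 16.1 and 22.9 CPM and Il18rap at 5.71 and 7.26. The part of myeloid cells in the Il18 differences was not tested. Il1b ranged from 0.179 to 2.56 CPM and Il1a from 0.0471 to 0.992 CPM in total Treg cells, where Il33 did not exceed 0.452 CPM. In the aTreg libraries labelled Brg1-deleted and Brg1-reexpressed Il33 was at 0.678 and 1.27 CPM. Il1f10 had 0 reads in all 8 libraries, which allows up to 0.181 CPM.

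Of 5 other receptors and soluble inhibitors, Sigirr, which encodes an inhibitory family member, ranged from 139 to 335 CPM in total Treg cells and was never called. Il18bp, the soluble IL-18 inhibitor, was called in 3 comparisons. It was 3.36-fold higher in untreated rKO1 than in mosaic Brg1-deleted cells and 3.16-fold higher in WT than in mosaic Brg1-sufficient cells. It was 0.426 times as high in reexpressed as in GFP+ cells. Of the myeloid markers compared, 5 of 7 were higher in each of the first 2 comparisons and 6 of 9 lower in the third. Without Cd74 these markers summed to 454 CPM in WT and 142 in mosaic Brg1-sufficient cells. Their part in the Il18bp differences was not tested. Il1rapl1 and Il1rapl2 had 0 reads throughout.

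Of 17 signalling genes downstream of the receptors, 14 were compared each time. In the mosaic pair, in rKO1 mice after TAM and in aTreg cells 0 of 14 were called, beside 6.12%, 12.8% and 6.44% of all compared genes. At such shares few of 14 genes would be called, so these counts do not set the list apart. The medians were -0.21, -0.04 and -0.29, against 0.03, 0.06 and -0.06 over all compared genes. Calls over all 8 comparisons were Tab2, which encodes a TAK1-binding protein, at 2.26-fold in untreated rKO1 over WT and 2.31-fold over mosaic Brg1-deleted cells, and the kinase gene Irak2, at 0.424-fold in the latter. Most of these signalling genes thus stayed, like Myd88 and most of all compared genes, under 2-fold.

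Of 7 inflammasome genes, which mature the ligands, 5 were compared. Casp4 was 3.26-fold and Casp1 2.22-fold higher in Brg1-sufficient than in Brg1-deleted mosaic cells (2 of 5 called, beside 6.12% of all compared genes). In rKO1 mice after TAM, Pycard was 3.77-fold higher in reexpressed cells (1 of 5, beside 12.8%). Between Brg1-deleted cells, Casp1 was 5.64-fold and Casp4 5.31-fold higher in untreated rKO1 (2 of 5, beside 15.1%). Reexpressed over mosaic Brg1-sufficient cells held 7.95-fold more Casp1, 3.35-fold more Casp4 and 3.13-fold more Pycard (3 of 5, beside 21.7%). In WT over mosaic Brg1-sufficient cells Casp1 was 3.09-fold higher (1 of 5, beside 9.37%). In untreated rKO1 over WT, GFP+ over untreated rKO1 and aTreg cells 0 of 5 were called, beside 15.7%, 4.42% and 6.44%. Of 7 myeloid markers compared, 5 were also higher in untreated rKO1 over mosaic Brg1-deleted cells, and 5 in WT over mosaic Brg1-sufficient cells. Their part in these Casp1 and Casp4 differences was not tested. Nlrp3 did not exceed 0.327 CPM.

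Of 9 genes known from ST2+ effector Treg cells, 4 of 7 compared were higher in Brg1-sufficient mosaic cells, led by Klrg1 (20.7-fold) and Il10 (6.96-fold), with Nfil3 at 2.46-fold and Batf at 2.31-fold, beside 6.12% of all compared genes called in either direction. In rKO1 mice after TAM, Klrg1 was 5.58-fold higher and Pparg 0.255 times as high in reexpressed cells (1 of 9 each way, 12.8% of all genes called), so that Pparg had the direction of Il1rl1 and Klrg1 that of Il1r2. Between Brg1-deleted cells 5 of 7 were higher in untreated rKO1, with Il10 at 23.0-fold and Klrg1 at 22.2-fold, beside 15.1% of all genes. In GFP+ over untreated rKO1 cells 3 of 9 were higher, led by Areg (5.07-fold), beside 4.42%. In untreated rKO1 over WT 3 of 8 were higher, led by Irf4 (2.22-fold), beside 15.7%. In reexpressed over mosaic Brg1-sufficient cells 5 of 8 were higher, led by Areg (5.65-fold), beside 21.7%, and in WT over mosaic Brg1-sufficient cells 0 of 8, beside 9.37%. In aTreg cells 3 of 8 were higher in the library labelled Brg1-reexpressed, Pparg at 4.26-fold, Klrg1 at 3.22-fold and Il10 at 2.69-fold, beside 6.44%.

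The genes whose pattern over the 6 total Treg libraries was most like that of each member were found by Pearson's r of log2(CPM + 1) among 11041 genes. With 6 points that share a scaling, such values describe these libraries only. For Il1r2 they were Hcst, Cldnd1 and Parl (r = 0.99 each), and for Il1rl1 Nrgn (0.97), Nme6 (0.96) and Zfp787 (0.95). For Il18r1 they were Dcxr, Kremen2 and Slc15a3 (0.99 each), and for Il18rap Disc1 (0.996), Slc7a10 (0.993) and Btbd19 (0.991). For Il1rap they were Gm28661 (0.98), Map4 (0.98) and mt-Co2 (0.97), and for Myd88 Msh3, Pgm2 (0.99 each) and Rhno1 (0.98). None of the 8 members was among them.

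Other marker lists were summed in the same way. B cell markers ranged from 11.9 CPM in untreated rKO1 to 73.7 in WT in the total Treg libraries, and were at 91.4 and 67.2 CPM in the aTreg libraries labelled Brg1-deleted and Brg1-reexpressed. Follicular T cell markers ranged from 164 CPM in mosaic Brg1-deleted cells to 436 in WT, and were at 883 and 877 CPM in those. Cxcr5 and Tox2, 2 of 5 compared, were called higher in mosaic Brg1-sufficient than Brg1-deleted cells, the direction of Il1r2, beside 6.12% of all genes. Tox2 was also called higher in untreated rKO1 over mosaic Brg1-deleted cells, as was Il1r2. The list went against Il1r2 elsewhere. Cxcr5 and Tox2 were called lower in WT over mosaic Brg1-sufficient cells, where Il1r2 was at 1.93-fold. Cxcr5 and Bcl6 were called lower in reexpressed over mosaic Brg1-sufficient cells, where Il1r2 was at 4.99-fold. The part of follicular T cells in the mosaic differences was not tested.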

How the data were processed

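Treg cells had been sorted by CD4, CD25 and YFP (mosaic Brg1-sufficient cells as YFP-), and aTreg cells also as CD44-high and CD62L-low. The cDNA from the low-input kit SMART-Seq v4 was sequenced from both ends. The authors deposited FPKM values per Ensembl gene. The submitters' processing notes name HISAT2 2.0, StringTie 1.3.3b, featureCounts 1.5.0-p3 and mm10. Reads were recovered by multiplying each FPKM value by the merged exon length in GENCODE M21 and a constant per library. This gave whole reads (within 0.02) for 93.3% of 26057 genes in the total Treg libraries and for 100% of 21242 in the aTreg libraries, and for all 8 members. For 1701 genes of the total Treg libraries, Foxp3 and Cd74 among them, this length did not give whole reads. Their reads and CPM, taken with the same length, are approximate, while their folds between libraries do not depend on the length. A further 37 genes were left out. The design had named a count unit in place of FPKM. CPM were scaled by an own trimmed mean of M-values (TMM; factors 0.867 to 1.17) over the libraries of an experiment, with a prior of 0.125 reads in folds, tested on simulated data. The tools were matplotlib 3.10.9 for figures and, in Python 3.11.15, pandas 2.3.3, SciPy 1.17.1 and NumPy 2.4.6.

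The members and lists were chosen with earlier results of these data known. Named were all members, up to 4 called genes per list and comparison by size, and the 3 most alike genes per member with at least 5 CPM in a library. Genes named for their level (Il1a, Il1b, Il33, Il1f10, Sigirr, Nlrp3, neighbours and markers) come from the same lists. Alternatives were other scalings, filters, priors and the deposited FPKM.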

Additional observations from a re-analysis of the deposited data

Results flagged for a closer look

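Il1rl1 was called in opposite directions by the contrast of cells with and without Brg1. Its log2 fold was 2.35 in mosaic females, with 192 reads against 43, and -1.10 in rKO1 mice after TAM, with 98 reads against 229. In aTreg cells, by their labels, it was 1.03, with 204 reads against 90. The difference between these settings was not tested, since each condition had 1 library.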

How the results depend on the processing

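No paired analysis was possible because each condition had 1 library. For the same reason no library could be left out. Of 64 counts of called members under an alternative, 48 stayed within 1.5 times the main count, and of 512 log2 folds of members 479 stayed inside the counting interval of the main value. No called member changed direction under the alternatives run. With a minimum of over 3 reads or of 1 CPM, the low genes entered, giving 5 calls in the mosaic pair (with Il1r1 and Il1rn) in place of 3, 3 in place of 1 in WT over mosaic Brg1-sufficient cells (again with both), 1 in place of 0 in GFP+ over untreated rKO1 cells (Il1rn) and 2 in place of 1 in aTreg cells (with Il1rn). With library totals alone, GFP+ over untreated rKO1 cells had 1 call (Il18rap, lower), aTreg cells 0, and WT over mosaic Brg1-sufficient cells 2 (with Il1r2), as the last also had by the median of ratios. On the deposited FPKM with a pseudocount of 1 the mosaic pair and the rKO1 pair after TAM kept 1 call each, Il1r2, and aTreg cells had 0, as they had with a pseudocount of 0.1. Library totals alone also moved the median log2 fold of all compared genes, in the rKO1 pair after TAM from 0.06 to -0.30, with 22.8% of calls higher in place of 55.5%, in untreated rKO1 over WT from -0.05 to 0.26 and in the mosaic pair from 0.03 to -0.10.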
